A study of Mus musculus with 9 samples.

Results

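The genes described are 31 members of the cholesterol synthesis pathway and of its SREBP2 control, in a table of 15343 genes. The table holds RNA-seq libraries from mouse intraperitoneal macrophages. The members were chosen by name, but with earlier results of these data known, so the list is not independent of the values. 23 members encode enzymes from acetyl-CoA to cholesterol, 6 encode SREBP2 and the proteins that hold back, move and cleave it, and 2 encode sterol transport proteins that SREBP2 is known to induce. All 31 were in the table, Msmo1 under its older symbol Sc4mol, and all 31 were among the 13895 genes kept for testing, for which 3 or more of the 9 libraries reached a normalized count of 10.

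The study examined how a Gpr120 agonist and an omega-3 fatty acid act on macrophages stimulated with LPS (lipopolysaccharide), a bacterial product that TLR4 senses. All 9 libraries came from wild-type cells, with the strain written CF7B1/6, and all received LPS at 100 ng/ml for 6 h. The 3 DHA libraries were from cells given 100 µM DHA (docosahexaenoic acid) for 1 h before LPS, and the 3 cpdA libraries from cells given 10 µM cpdA, the Gpr120 agonist, for 1 h before LPS. For the 3 LPS libraries the labels give no pretreatment and no vehicle, so a difference from LPS holds any effect of the pretreatment step too. Unstimulated cells are not analysed here. Nothing in the labels says that replicates were separate animals or cultures, so p-values measure the spread between these libraries, which may be technical.

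Cholesterol is built from acetyl-CoA through mevalonate, isoprenoid diphosphates, squalene and lanosterol. When sterols in the endoplasmic reticulum run low, SCAP carries the precursor of SREBP2 to the Golgi, where a pair of proteases frees the transcription factor. INSIG proteins hold SCAP back when sterols are plentiful, and INSIG1 is itself an SREBP2 target, so that the enzymes and Insig1 are known to move together. Macrophages change sterol synthesis when TLR4 is triggered, and polyunsaturated fatty acids are known to affect SREBP processing in other cells.

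The reads recovered from the table numbered between 13797079 (DHA 1) and 37572822 (cpdA 2). LPS 3 and cpdA 3 stood apart from the other 7 libraries over all genes tested: cpdA 3 lay alone on the first principal component (40.5% of the variance), and LPS 3 on the second (28.8%). The summed normalized count of 10 macrophage markers was 335550 in LPS 3 and 389120 in cpdA 3, against 565760 to 590130 in the other 7 libraries, and no macrophage marker was at 0 in any library. That gap was in Lyz2, the lysozyme gene: the other 9 markers summed to 125160 in LPS 3 and 120070 in cpdA 3, within the 117210 to 140190 of the other 7 libraries. Single markers in that sum still differed, in both directions. In cpdA 3 Csf1r had 21816 counts against 7572 to 11559 elsewhere, and Cd14 12490 against 20034 to 30931. Fcgr1 had 10269 in LPS 3 and 957 in cpdA 3, against 2107.5 to 4597.5 in the other 7. The summed count of 12 mesothelium, fibroblast and endothelium markers was 49933 in LPS 3 and 37406 in cpdA 3, against 28923 to 35598 in the others. The 6 neutrophil markers in the table summed to 7403, 7578 and 8589 in LPS 1, 2 and 3, to between 5345 and 6645 with DHA, and to 6397, 6309 and 3600 in cpdA 1, 2 and 3. These sums were mostly Csf3r, which macrophages can also express, and the other 5 neutrophil markers, S100a8 and Camp among them, summed to 461, 509 and 283, to between 530 and 619, and to 613, 521.5 and 177 in the same order of groups, lowest in cpdA 3 and LPS 3. The 5 nuclear RNAs read as a sign of RNA quality summed to 53798 in cpdA 3, against 12259 to 23374 elsewhere. Of that sum Neat1 made 46514, against 7382 to 15888 elsewhere, and the other 4 summed to 7284 in cpdA 3, below their 8625 in LPS 3. The sums of 8 B cell, 5 T and NK cell and 6 mast cell, basophil and eosinophil markers reached at most 1627, 469.7 and 444. Apart from Ltf in LPS 2 and Cd2 in DHA 1, no marker found in the table was at 0. Some of the 12 neutrophil, 10 T and NK cell and 11 mast cell, basophil and eosinophil markers listed were absent from it, Ly6g and Cd3e among them. The mitochondrial transcripts listed for RNA quality were absent too. The part of these markers in the results below was not tested, and in bulk RNA fewer cells of a type and less RNA per cell cannot be told apart.

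Where 3 values of a group follow each other, they are those of its libraries 1, 2 and 3. Across libraries most of the enzyme genes were high in LPS 1 and LPS 2, lower and close to each other in all 3 DHA libraries and in cpdA 1 and cpdA 2, lowest in cpdA 3, and LPS 3 sat with or below the DHA libraries although it was a control. LPS 1 and LPS 2 were the 2 highest of the 9 libraries for 21 of the 31 members, against 5.82% of all genes tested, and were the 2 lowest for 0 members. All 3 DHA libraries were below LPS 1 and LPS 2 for 23 members (21.5% of all genes), and cpdA 1 and cpdA 2 were below them for 25 (25.0% of all genes). LPS 3 was below all 3 DHA libraries for 20 members (35.2% of all genes), and cpdA 3 was the lowest of all 9 libraries for 18 (27.6% of all genes).

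The size of these shifts differed from enzyme to enzyme. On the scale of log2(normalized count + 1), with each gene set to its mean over the 9 libraries, the median level of the 23 enzymes was 0.73, 0.66 and -0.24 with LPS. It was -0.090, 0.016 and -0.068 with DHA, and -0.11, -0.0016 and -0.90 with cpdA. In LPS 1 the enzymes ran from -0.05 (Ggps1) to 1.02 (Acat2), and in cpdA 3 from -1.23 (Idi1) to 0.75 (Acss2). The first principal component of the 31 members alone held 81.6% of their variance, and on it LPS 1 (-3.21) and LPS 2 (-3.16) lay at the end opposite to cpdA 3 (3.91), with LPS 3 at 1.30 and the other 5 libraries between -0.21 and 0.55. The same medians over all genes tested stayed between -0.012 and 0.020 in every library.

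**Figure D1:**
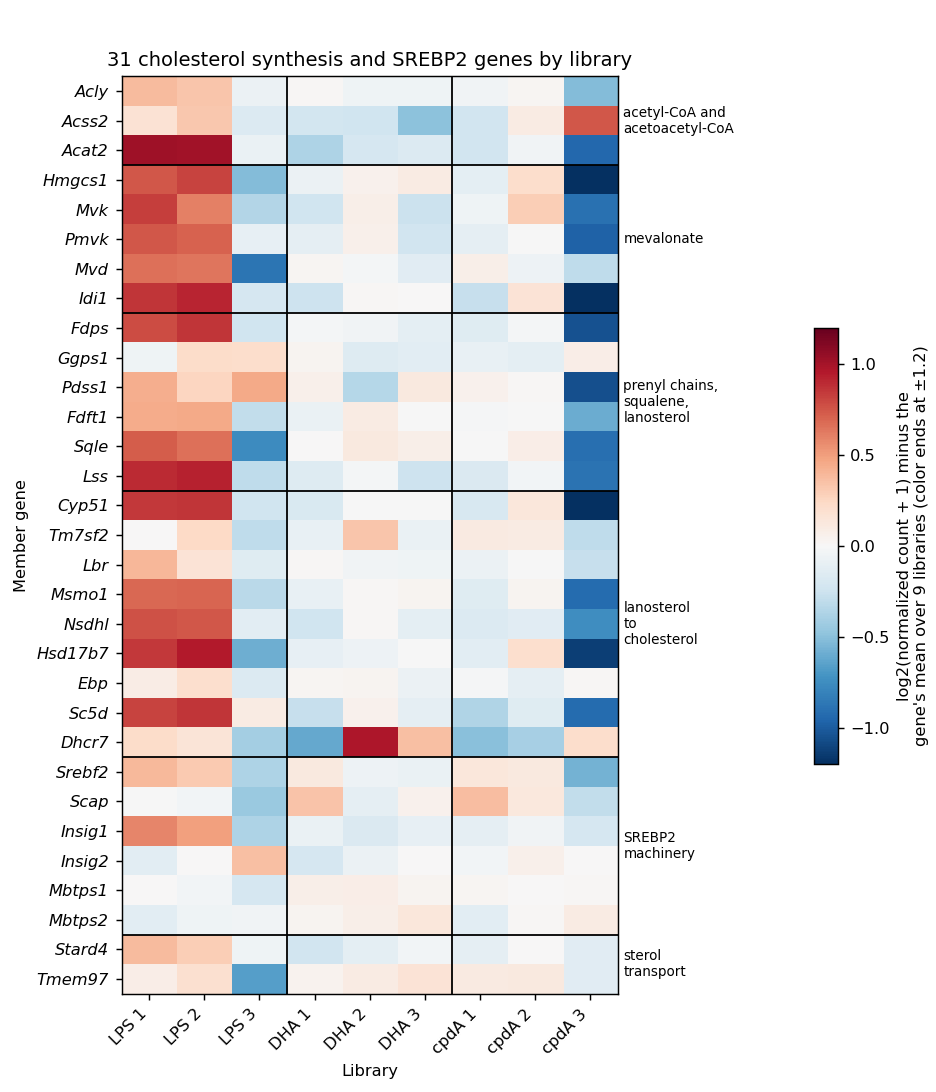
Level of the 31 members (rows, by role) in the 9 libraries (columns), as log2(normalized count + 1) minus the gene's mean over the 9 libraries, red above and blue below it. LPS 1 and LPS 2 are red for most enzymes, cpdA 3 is blue, and LPS 3 is pale or blue, while the Mbtps1 and Mbtps2 rows stay close to white.

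The first enzymes supply acetyl-CoA and join it. Acat2, the cytosolic thiolase that makes acetoacetyl-CoA, had normalized counts of 1199.9, 1193 and 559.7 with LPS, 459, 515 and 529.7 with DHA and 506, 575 and 307 with cpdA. All 3 DHA libraries lay below all LPS libraries, LPS 3 included, while cpdA 2 lay just above LPS 3. With all 9 libraries Acat2 differed by -0.89 on the log2 scale with DHA (SE 0.32; limma adjusted p = 0.293) and by -1.05 with cpdA (SE 0.32; limma adjusted p = 0.231). Acly, the ATP citrate lyase that makes most cytosolic acetyl-CoA, had 7938.5, 7701 and 5823 normalized counts with LPS, 6181.5, 5892 and 5887 with DHA and 5942, 6223 and 4262 with cpdA. Its DHA libraries lay above LPS 3 and below LPS 1 and LPS 2. Acss2, which makes acetyl-CoA from acetate, was the exception among the enzymes in cpdA 3, its highest library: it had 178, 198 and 141 counts with LPS, 136, 134 and 112 with DHA and 134, 169.7 and 266 with cpdA.

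In the mevalonate steps, Hmgcs1, the HMG-CoA synthase and a classical SREBP2 target, had the most counts. It stood at 14809, 15476 and 6149.5 with LPS, 8386, 9101 and 9447 with DHA and 8143, 10179 and 3795 with cpdA. The DHA libraries lay between LPS 3 and the other LPS libraries, and cpdA 3 was the lowest of all. Idi1, the isomerase that makes the allylic isoprenoid unit, had 6516, 6769 and 3116 counts with LPS, 3021, 3629 and 3602 with DHA and 2957, 4015 and 1527.5 with cpdA. LPS 3 lay inside the range of the DHA libraries. With all 9 libraries Hmgcs1 differed by -0.32 with DHA (SE 0.42; limma adjusted p = 0.754) and by -0.72 with cpdA (SE 0.42; limma adjusted p = 0.452), and Idi1 by -0.60 and -0.97 (SE 0.38 each; limma adjusted p = 0.487 and 0.293). Mvk and Pmvk, the kinases, and Mvd, the decarboxylase, were likewise highest in LPS 1 and LPS 2. For Mvk and Pmvk the lowest of the 9 libraries was cpdA 3, and for Mvd it was LPS 3, at 832 counts against 2418 and 2391 in LPS 1 and LPS 2.

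**Figure D2:**
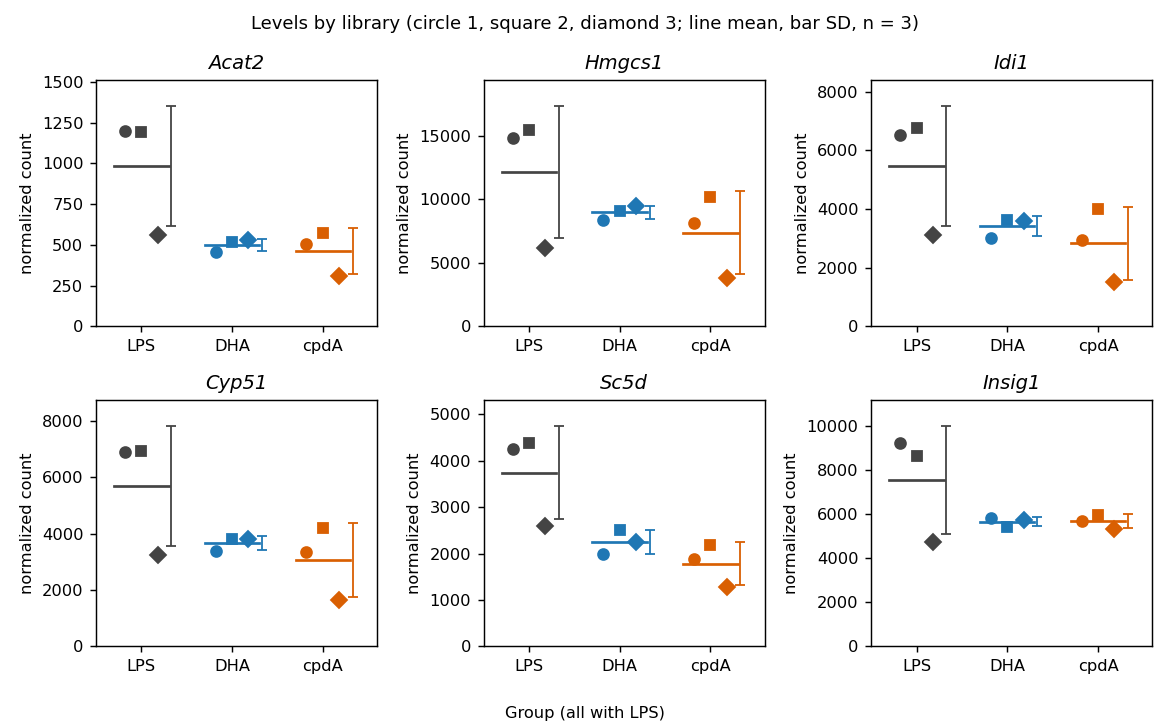
Normalized counts (vertical axes, from 0) of Acat2, Hmgcs1, Idi1, Cyp51, Sc5d and Insig1 in each library of the LPS, DHA and cpdA groups, with the group mean (line) and SD (bar, n = 3). In every panel the diamond of LPS 3 lies below LPS 1 and LPS 2, for Hmgcs1 at 6149.5 against 14809 and 15476.

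Among the enzymes from prenyl chains to lanosterol, Fdps, the farnesyl diphosphate synthase, had 5366, 5649 and 2638 counts with LPS, 3072, 3022 and 2885 with DHA and 2823, 3073 and 1507 with cpdA. Fdft1, the squalene synthase that commits farnesyl diphosphate to sterols, had 4894, 4920.5 and 2920.2, 3397, 3833 and 3585 and 3551, 3575 and 2380.4 counts in the same order. For both genes LPS 3 was below all 3 DHA libraries and cpdA 3 was the lowest library. Sqle, the squalene epoxidase and a rate-limiting oxygen-using step, had 4314, 4103.5 and 1544 counts with LPS, 2610.4, 2810 and 2728 with DHA and 2584, 2748 and 1389 with cpdA. Lss, the lanosterol synthase, had 2063, 2096 and 897, 992, 1085 and 930.4 and 981, 1081.5 and 598.5 counts. The enzymes of the side branches did otherwise: Ggps1, which makes geranylgeranyl diphosphate for protein prenylation, ranged only from 417 to 542 counts over the 9 libraries, with LPS 2 highest and DHA 2 lowest. Pdss1, a subunit of the synthase of the ubiquinone tail, was the member of low count whose LPS libraries (185, 164 and 187) all lay above the DHA (143, 107 and 148) and cpdA libraries (142, 138 and 65.2).

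After lanosterol, Cyp51, the lanosterol demethylase, had 6899.5, 6937 and 3245 counts with LPS, 3375, 3816 and 3823 with DHA and 3366, 4214.5 and 1649 with cpdA, and Msmo1, the methylsterol oxidase, had 7089, 7142 and 3516, 4131, 4443 and 4475 and 3962, 4496.5 and 2316. Both were low in LPS 3 and lowest in cpdA 3. Sc5d, the sterol desaturase, had 4252, 4392 and 2594 counts with LPS, 2002, 2511 and 2247 with DHA and 1889, 2191 and 1273 with cpdA. Every library of both pretreated groups lay below every LPS library, which among the 31 members held also for Pdss1. With all 9 libraries Sc5d differed by -0.70 with DHA (SE 0.24; limma adjusted p = 0.293) and by -1.07 with cpdA (SE 0.24; limma adjusted p = 0.201), neither past the threshold of 0.05. Nsdhl and Hsd17b7, which act in removal of the methyl groups, were also highest in LPS 1 and LPS 2 and lowest in cpdA 3. LPS 3 lay within the DHA range for Nsdhl and below it for Hsd17b7. Ebp, the sterol isomerase, stayed between 701 and 903 counts, Lbr, a sterol reductase that also anchors chromatin at the nuclear envelope, between 359 and 576, and Tm7sf2, a reductase of the same step, between 125 and 195. Dhcr7, the reductase of a last step, followed no group: it had 216, 648 and 424 counts in DHA 1, 2 and 3, which held both its lowest and its highest library.

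Of the SREBP2 machinery, Insig1 and Srebf2 are themselves known targets of SREBP2. Insig1, the retention protein, had 9223, 8636 and 4749.7 counts with LPS, 5807, 5423 and 5715 with DHA and 5702, 5956 and 5324 with cpdA. All 6 pretreated libraries lay in a narrow band below LPS 1 and LPS 2 and above LPS 3, and cpdA 3 was not set apart. Insig2, the paralog that sterols do not induce through SREBP2, had 665, 727 and 932, 631, 692 and 726 and 709, 757 and 726 counts, with LPS 3 highest. The ratio of Insig1 to Insig2 counts, which compares libraries and not the levels of the genes, was 13.9, 11.9 and 5.10 with LPS, 9.20, 7.83 and 7.88 with DHA and 8.04, 7.87 and 7.33 with cpdA (exact permutation p = 0.9 for DHA and 0.5 for cpdA against LPS, two-sided).

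Srebf2, which encodes SREBP2 and is its own target, had 7211, 6819.6 and 4259 counts with LPS, 5965, 5260.3 and 5209 with DHA and 6034, 5961 and 3695 with cpdA. LPS 1 and LPS 2 were the highest, and LPS 3 and cpdA 3 the lowest. Scap, the escort that senses cholesterol, had 1866, 1831 and 1376, 2383, 1743 and 1942 and 2426, 2047 and 1525 counts, and here DHA 1 and cpdA 1 were the highest and LPS 3 the lowest. The ratio of Scap to Srebf2 counts was 0.259, 0.269 and 0.323 with LPS, 0.399, 0.331 and 0.373 with DHA and 0.402, 0.343 and 0.413 with cpdA. All pretreated libraries lay above all LPS libraries, LPS 3 included. The exact permutation p was 0.1 for each pretreatment, two-sided, which is the smallest that 3 against 3 libraries allow, and 0.45 after Benjamini-Hochberg adjustment over the 9 ratio tests made.

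The proteases spanned the narrowest range of the 31 members, with the highest library at 1.21 times the lowest for Mbtps1 and 1.2 times for Mbtps2. Mbtps1, the site-1 protease that makes the first cut, had 1423, 1391 and 1239 counts with LPS, 1494, 1502 and 1453 with DHA and 1447, 1421 and 1436 with cpdA, and Mbtps2, the site-2 protease that frees the active factor, had 953, 1007 and 1013, 1063, 1096 and 1143 and 953, 1055 and 1113. Their DHA libraries lay above all LPS libraries, by a fitted 0.14 for Mbtps1 and 0.15 for Mbtps2 on the log2 scale (SE 0.079 and 0.084; limma adjusted p = 0.450 and 0.434). Of the transport genes, Stard4, which carries cholesterol between membranes, had 1056, 997 and 782 counts with LPS, 689, 748 and 792 with DHA and 752, 811 and 735 with cpdA, so that LPS 3 overlapped both pretreated groups. Tmem97, an endoplasmic reticulum protein that limits NPC1, was at 381 in LPS 3 and between 547 and 684.5 in the other 8 libraries.

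**Figure D3:**
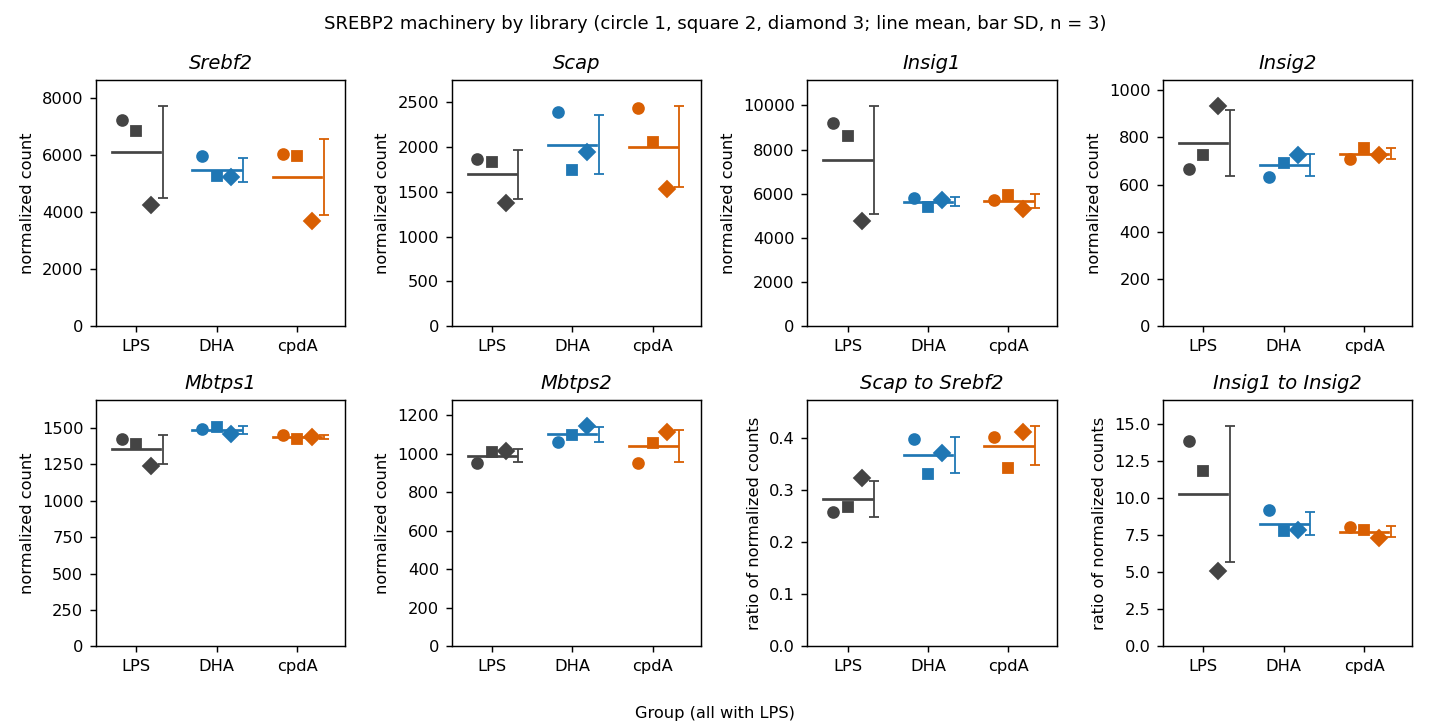
Normalized counts of the 6 SREBP2 machinery genes and 2 ratios of counts (vertical axes, from 0) in each library, with group mean (line) and SD (bar, n = 3). The Scap to Srebf2 ratio is 0.331 or more in the pretreated libraries and 0.323 or less with LPS, while the Insig1 to Insig2 ratio of LPS 3, 5.10, is the lowest of all.

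With all 9 libraries in the fit, none of the 31 members passed the test in any comparison. limma called 0 members for DHA against LPS, where it called 0.00720% of all genes (1 gene), 0 for cpdA against LPS, where it also called 0.00720% (1 gene), and 0 for cpdA against DHA, where it called 0 genes (0%). At an unadjusted p under 0.05 by limma there were 4 of 31 members for DHA, 12 for cpdA and 0 for cpdA against DHA. Of all 13895 genes there were 1967, 2030 and 142. The 4 members for DHA are no larger a share than that of all genes. edgeR on the recovered reads also called 0 members in each comparison. DESeq2 called 0 for DHA, 0 for cpdA against DHA and 2 for cpdA against LPS, both lower, where it called 1.65% of genes lower: Sc5d (-1.07, adjusted p = 0.00425) and Acat2 (-1.09, adjusted p = 0.0301). The median fitted difference of the members was -0.32 for DHA, with 25 of 31 below 0, and -0.39 for cpdA, with 26 of 31 below 0, against medians of -0.00067 and -0.0043 over all genes.

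Counted without a model, 4 members had all DHA libraries below all LPS libraries (Acss2, Acat2, Pdss1 and Sc5d; 15.0% of all genes) and 2 had them all above (Mbtps1 and Mbtps2; 13.0% of all genes). 3 members had all cpdA libraries below all LPS libraries (Pdss1, Nsdhl and Sc5d; 12.2% of all genes) and 0 above (10.7%). These shares are near or under those of all genes. Matched by replicate number, cpdA was below LPS at all 3 numbers for 20 of 31 members, against 24.1% of all genes. The replicate numbers are not shown to mark pairs, which limits this count and the block fit that follows. The members also moved together across libraries, and the count partly restates the library orders given above. It is therefore no independent support. A fit of the LPS and cpdA libraries with a replicate block called 0 members and 0 genes, with 16 members at an unadjusted p under 0.05 by limma, beside 12.5% of all genes.

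A fit without LPS 3 and cpdA 3 is given beside this, since both libraries stood apart over all genes. It was chosen after seeing the data, and LPS 3 is itself low in these genes, so its p-values are no independent support. The 2 LPS libraries kept were also the closest pair within a group over all genes, and the SEs of this fit rest partly on them. In these 7 libraries 19 of the 31 members fell with DHA and 0 rose, against 4.04% of all genes called lower, and 15 fell with cpdA and 0 rose, against 0.885% of all genes called lower (limma, Benjamini-Hochberg over 13895 genes). The median difference of the members was -0.56 with DHA and -0.60 with cpdA. In LPS 3, the control left out, 13 of the 19 members called with DHA stood below all 3 DHA libraries. The calls in both comparisons depended on leaving out LPS 3 and cpdA 3 together. Leaving out LPS 3 alone gave 0 called members in each comparison, with medians of -0.56 and -0.66, and leaving out cpdA 3 alone also gave 0.

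By role in these 7 libraries, 2 of 3 acetyl-CoA enzymes fell with DHA and 1 with cpdA, 5 of 5 mevalonate enzymes with DHA and 4 with cpdA, and 4 of 6 from prenyl chains to lanosterol with each. After lanosterol 5 of 9 fell with each. In both comparisons Acat2 had the largest difference: it fell by 1.26 with DHA (SE 0.098; limma adjusted p = 0.000128) and fell by 1.15 with cpdA (SE 0.11; adjusted p = 0.000698) (Benjamini-Hochberg). Lss fell by 1.05 and 1.01, and Sc5d by 0.95 and 1.09. Idi1 fell by 0.96 with DHA and 0.95 with cpdA, Hmgcs1 by 0.76 and 0.73, and Cyp51 by 0.92 and 0.88. Insig1 fell by 0.66 (adjusted p = 0.00119) and 0.61 (adjusted p = 0.00657). Srebf2 fell by 0.36 with DHA (adjusted p = 0.0348), while its difference of -0.23 with cpdA did not pass (adjusted p = 0.392). Scap, Insig2, Mbtps1 and Mbtps2 passed in neither, with differences between -0.03 and 0.27. Ebp, Lbr, Tm7sf2, Dhcr7, Ggps1, Pdss1, Acss2 and Tmem97 did not pass in either comparison.

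**Figure D4:**
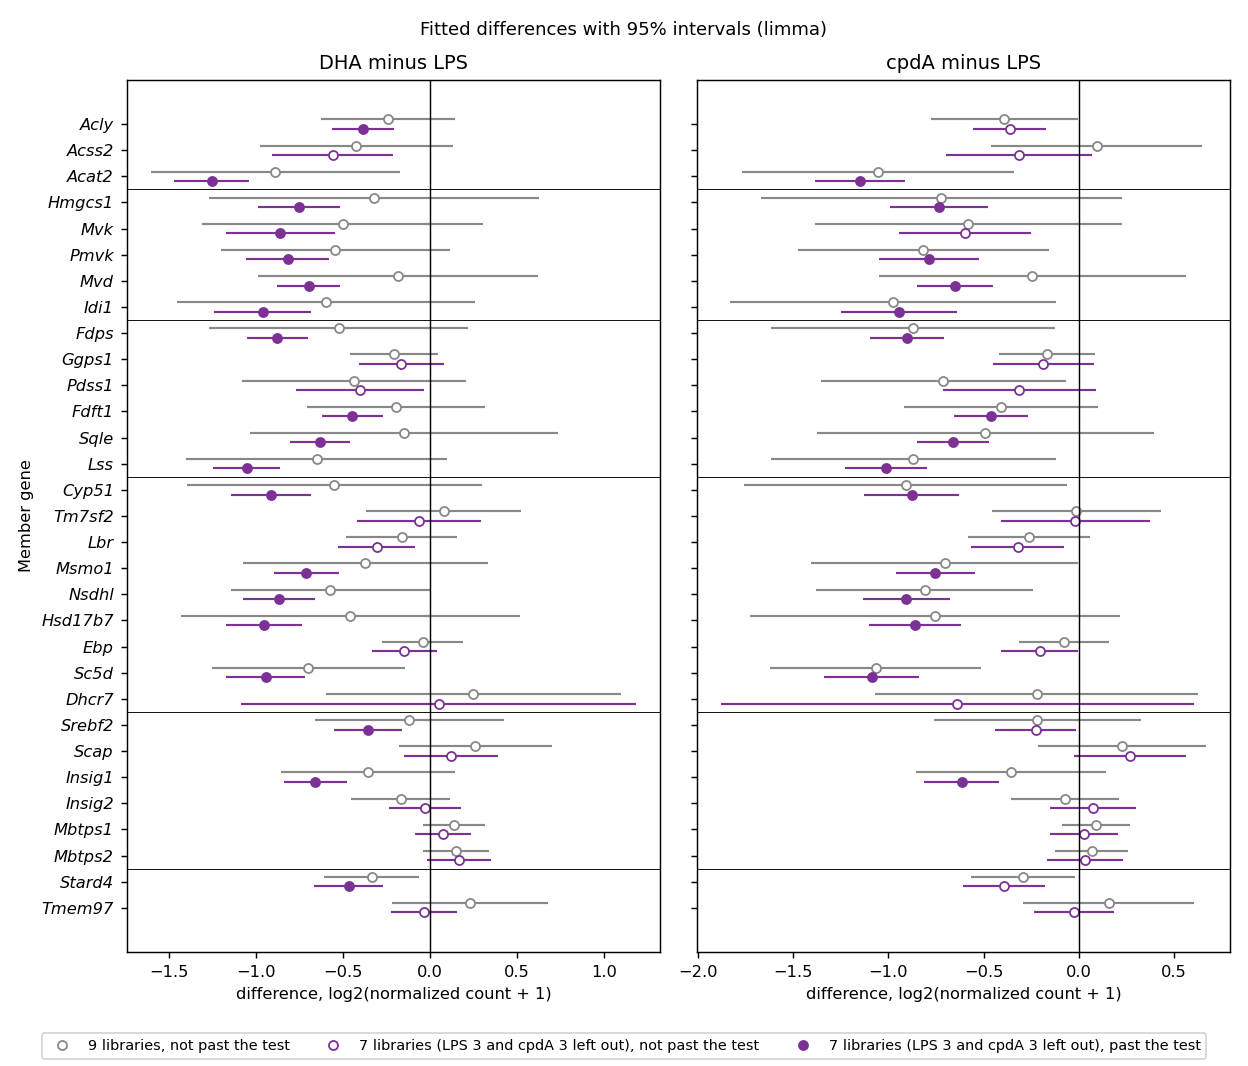
Fitted difference of each member on the log2 scale with its 95% interval (horizontal axis) for DHA minus LPS (left) and cpdA minus LPS (right), with 9 libraries in gray and with 7 libraries in purple. Filled points passed the limma test: none with 9 libraries, and 19 (DHA) and 15 (cpdA) with 7, with differences from -1.26 (Acat2) to -0.36 (Srebf2).

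LPS 3 and cpdA 3, left out of that fit, are a single library against a single library and include no DHA library. The members moved together across libraries, and cpdA 3 was already seen to be low in most of them, so these counts are no independent support. cpdA 3 was below LPS 3 for 21 of the 31 members, against 50.8% of all genes, and for 13 of the 15 members called with cpdA. The exceptions among the 15 were Insig1 and Mvd. Hmgcs1 had 3795 counts in cpdA 3 against 6149.5 in LPS 3, Cyp51 1649 against 3245 and Sc5d 1273 against 2594. Neat1 also differed between these libraries, as given above, and its part in these values was not tested.

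DHA 1 and cpdA 1 were the most similar pair of libraries over all genes although their groups differ. Their median absolute difference on the log2 scale was 0.057 over the members and 0.092 over all genes. LPS 1 and LPS 2, the only LPS libraries in the fits of 7 and 6 libraries, came next, with 0.072 and 0.095. The median squared difference over genes was 1.37 times that of read sampling for the first pair and 2.17 times for the second. In other pairs of the same group it was 4.66 times or more. Whether these pairs are technical repeats was not tested. Leaving out DHA 1 as well as LPS 3 and cpdA 3 gave 21 members lower and 1 higher with DHA (11.5% of all genes called lower) and 19 lower with cpdA (2.84%). Leaving out cpdA 1 in its place gave 18 lower with DHA (2.74%) and 3 lower with cpdA (0.0288%), and leaving out cpdA 2 in its place gave 18 (2.79%) and 11 (0.281%). Both of these leave 1 cpdA library, taken to vary like the other groups.

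Between the pretreatments no member differed past the test, with 9 or with 7 libraries (0% of all genes called lower in the latter). The median difference of the members, cpdA minus DHA, was -0.15 with 9 libraries and 0.023 with 7. At these doses of 10 µM cpdA and 100 µM DHA, the 95% intervals of that difference with 9 libraries were -1.35 to 0.55 for Hmgcs1, -1.23 to 0.48 for Idi1, -1.21 to 0.49 for Cyp51 and -0.50 to 0.50 for Insig1. With the 7 libraries, a choice made after seeing the data, they were -0.21 to 0.26, -0.26 to 0.30, -0.19 to 0.23 and -0.14 to 0.23. Mbtps1 was the 1 member with all cpdA libraries below all DHA libraries (2.61% of all genes). Acss2 had the largest difference with 9 libraries, 0.52 (95% interval -0.04 to 1.07), which came from cpdA 3 and was 0.25 without it and LPS 3.

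Since many members moved together across libraries, their promoters were read for the motifs linked to SREBP2. RefSeq (GRCm38.p6) gave windows for 27 of the 31 members, all but Fdps, Fdft1, Sqle and Stard4. The 250 bases before each start were searched on both strands for TCACNCCAC, a sterol response element, for CCAAT, bound by NF-Y, a known partner of SREBP2, for GGGCGG, bound by Sp1, and for CACGTG, an E-box. The CCAAT motif was present for 21 of the 27 members (77.8%) against 40.8% of 10464 genes tested that had windows, and GGGCGG for 23 (85.2%) against 62.3%. CACGTG was present for 5 (18.5%) against 9.81%, and TCACNCCAC for Hmgcs1 only (3.70%) against 1.19%. CACCCCAC, a shorter form of the sterol element that was also searched, was present for Hmgcs1 and Acat2 (7.41%) against 3.30%. The members without CCAAT in these windows were Acat2, Acly, Mbtps1, Mbtps2, Pdss1 and Scap. These windows are of another genome build than the authors' mm9, genes with several starts had several windows, and a match is a description, not a site. 6 windows are shown, 5′ to 3′ on the strand of the gene, with TCACNCCAC, CCAAT and CACGTG on either strand in capitals. In them no match of a named motif overlapped another, except CACCCCAC within the sterol element of Hmgcs1. The first 5 belong to members highest in LPS 1 and LPS 2, and Mbtps2 to one that was not. These windows do not stand for all members. Acat2 and Acly were also highest in LPS 1 and LPS 2 but have no CCAAT match. Acss2, Dhcr7, Ggps1, Insig2, Tm7sf2 and Tmem97 were not highest there but have one or more. A link between motif and level was not tested.
Hmgcs1: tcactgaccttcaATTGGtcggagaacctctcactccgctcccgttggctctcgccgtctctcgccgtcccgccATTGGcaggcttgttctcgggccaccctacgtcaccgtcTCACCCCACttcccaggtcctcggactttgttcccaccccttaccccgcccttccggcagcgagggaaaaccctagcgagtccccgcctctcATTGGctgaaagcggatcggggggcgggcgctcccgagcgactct
Idi1: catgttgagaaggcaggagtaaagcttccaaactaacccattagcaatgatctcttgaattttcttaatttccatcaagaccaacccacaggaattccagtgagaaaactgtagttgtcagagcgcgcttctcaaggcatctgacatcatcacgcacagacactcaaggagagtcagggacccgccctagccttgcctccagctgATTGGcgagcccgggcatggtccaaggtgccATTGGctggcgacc
Cyp51: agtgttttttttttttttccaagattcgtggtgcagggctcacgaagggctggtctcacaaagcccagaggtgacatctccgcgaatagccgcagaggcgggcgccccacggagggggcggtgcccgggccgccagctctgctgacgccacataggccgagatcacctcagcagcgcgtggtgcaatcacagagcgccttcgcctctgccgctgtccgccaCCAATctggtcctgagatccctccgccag
Sc5d: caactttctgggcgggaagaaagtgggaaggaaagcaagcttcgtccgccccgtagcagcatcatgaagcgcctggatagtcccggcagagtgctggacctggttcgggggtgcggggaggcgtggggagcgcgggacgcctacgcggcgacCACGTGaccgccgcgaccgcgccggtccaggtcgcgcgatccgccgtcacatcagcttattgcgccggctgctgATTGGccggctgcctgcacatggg
Insig1: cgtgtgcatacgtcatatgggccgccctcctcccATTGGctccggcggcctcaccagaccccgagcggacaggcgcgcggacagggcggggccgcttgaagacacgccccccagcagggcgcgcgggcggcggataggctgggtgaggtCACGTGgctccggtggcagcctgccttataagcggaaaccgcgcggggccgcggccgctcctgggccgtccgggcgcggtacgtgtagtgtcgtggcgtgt
Mbtps2: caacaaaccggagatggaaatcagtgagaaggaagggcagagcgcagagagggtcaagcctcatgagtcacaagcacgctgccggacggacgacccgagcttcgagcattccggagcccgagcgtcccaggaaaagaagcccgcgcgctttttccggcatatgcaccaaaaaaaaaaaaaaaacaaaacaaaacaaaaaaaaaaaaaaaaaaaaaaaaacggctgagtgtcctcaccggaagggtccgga
The Hmgcs1 window is at chr13:119690101-119690350, that of Idi1 at chr13:8885356-8885605 and that of Insig1 at chr5:28071162-28071411, all on the plus strand. The Cyp51 window is at chr5:4104698-4104947, that of Sc5d at chr9:42264301-42264550 and that of Mbtps2 at chrX:157598716-157598965, all on the minus strand. Hmgcs1 holds 3 CCAAT matches beside the sterol element, Idi1 2, Cyp51, Sc5d and Insig1 1 each, and Mbtps2 none. Sc5d and Insig1 each also hold 1 CACGTG.

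Other lists around the pathway, chosen like the members with earlier results of these data known, were read in the same fits. With 9 libraries 0 genes of any of the 5 lists passed in either comparison with LPS. The counts in the 7 libraries stand beside 4.04% of all genes called lower and 2.75% called higher with DHA, and 0.885% called lower with cpdA. There 8 of 17 genes of SREBP1 and fatty acid synthesis fell with DHA and 4 with cpdA, among them Fasn, the fatty acid synthase, by 0.64 (adjusted p = 0.00202) and 0.55 (adjusted p = 0.0158). Fasn had 3102, 3106 and 1477.5 counts with LPS, 2071, 2072.5 and 1826 with DHA and 1997, 2252 and 1427 with cpdA, highest in LPS 1 and LPS 2 and lowest in cpdA 3 like most sterol enzymes. Of 14 sterol sensing and turnover genes 1 fell with DHA (Rnf139, a ligase of the sterol-regulated degradation pathway), and of 21 genes of the other isoprenoid branches 0 passed. Of 16 sterol uptake and traffic genes Npc1, the lysosomal cholesterol exporter, rose with DHA by 0.40 (adjusted p = 0.0372). None of the genes of these 3 lists passed with cpdA, and 1 gene of 14 or 16 is near the share of all genes.

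Srebf1, which encodes the paralog SREBP1, differed from Srebf2 in that LPS 3 kept with its group. It had 2729, 2431.5 and 2657 counts with LPS, 2073, 1749 and 1650.4 with DHA and 2152, 1884 and 1584 with cpdA, with no overlap between LPS and either pretreated group. With 9 libraries it differed by -0.52 with DHA (SE 0.13; limma adjusted p = 0.231) and -0.49 with cpdA (adjusted p = 0.224). Ch25h, which makes the oxysterol 25-hydroxycholesterol, an inhibitor of SREBP2 processing, was higher in LPS 3 than in any other library. It had 522, 583 and 1456 counts with LPS, 323, 262 and 282 with DHA and 344, 401 and 282.5 with cpdA, again without overlap. It differed by -1.40 with DHA (SE 0.34; adjusted p = 0.219) and by -1.17 with cpdA (adjusted p = 0.230). Abca1, the LXR-induced cholesterol exporter, had 11093, 11915 and 9034, 6752, 8657 and 7750.1 and 6556, 9503 and 7407 counts, with cpdA 2 above LPS 3. Of 13 LXR and oxysterol genes 3 fell with DHA in the 7 libraries (Ch25h, Mylip and Abca1) and 1 with cpdA (Mylip).

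**Figure D5:**
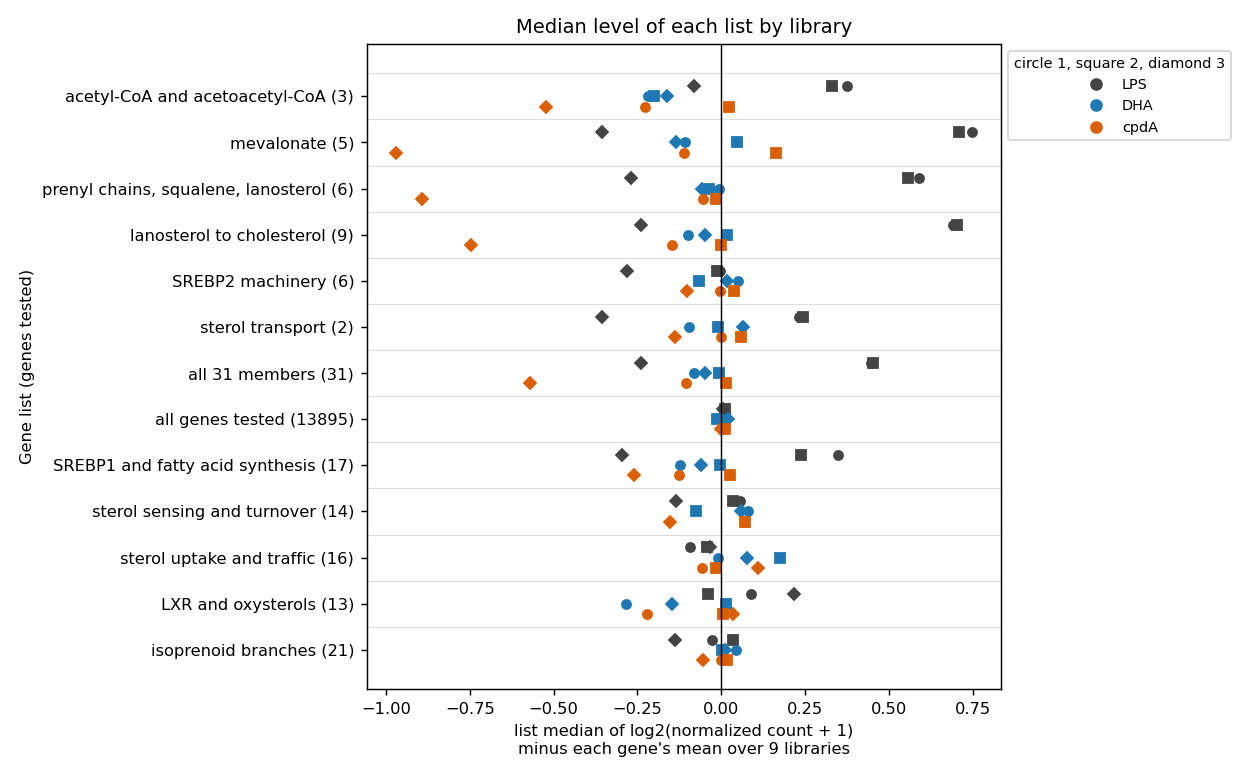
Median of log2(normalized count + 1), with each gene set to its mean over the 9 libraries (horizontal axis), for the roles of the members, all 31 members, all genes tested and 5 neighbouring lists, with 1 point per library. LPS 1 and LPS 2 lie at 0.33 or above for the 4 enzyme roles, and LPS 3 and cpdA 3 lie below 0 in each of those, whereas all genes tested stay near 0.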

How the data were processed

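RNA-seq libraries of mouse intraperitoneal macrophages, 3 per group, were grouped from the sample titles. Each deposited signal value is a normalized count, made by the authors, per the submitters' processing notes, with DESeq after Bowtie2 alignment to mm9 (base calling with CASAVA 1.8.2). The read counter, its annotation, the library kit and whether strand was used were not given in the sources used here. Reads of overlapping or antisense genes cannot be told apart. The labels' protocols for growth and extraction are of neural stem cells and of DNA bound to histones, and were left unused. All values up to 1000 were whole multiples of 1 read's worth within 0.05 (100%), so whole reads were recovered.

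Genes with a value of at least 10 in at least 3 libraries were log2-transformed after adding 1 and fitted with limma 3.58.1 (trend and robust options; statmod 1.5.0; R 4.3.3), all 9 libraries in 1 fit, with Benjamini-Hochberg adjustment over 13895 genes and a threshold of 0.05. This scale understates changes of low genes. edgeR 4.0.16 and DESeq2 1.42.0 on recovered reads, other pseudocounts, filters and scalings, a replicate block and each library left out were alternatives, and the fits of 7 and 6 libraries were added after seeing the data. The test scripts were checked on simulated data. Same-number LPS and cpdA libraries deviated together across genes (r = 0.387, 0.234 and 0.437), which met the rule for pairing of over 0.1 in every pair. LPS 2 with cpdA 1 (0.292), LPS 1 with cpdA 2 (0.264) and DHA 2 with cpdA 3 (0.452) did too. The replicate numbers are therefore not shown to mark pairs. The members and lists were chosen with earlier results of these data known. Values in every library are given for the members with most counts in each role, those of the SREBP2 machinery and some others chosen after their values were seen, and of the neighbouring lists for Srebf1, Ch25h, Abca1 and genes with the smallest p. Counts depend on gene length, so levels are compared between libraries, not between genes. Matches to promoter windows were by Entrez number.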

Additional observations from a re-analysis of the deposited data

How the results depend on the processing

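The median difference of the 31 members kept its sign in every alternative tried for DHA and for cpdA against LPS. It moved there by less than 0.292, the SD of the library medians within groups. That SD includes LPS 3 and cpdA 3 and is close in size to the DHA median of -0.32, so it is a loose limit. Over leaving out each library in turn the median ran from -0.56 to -0.19 for DHA and from -0.66 to -0.24 for cpdA. For cpdA minus DHA it ran from -0.31 to 0.023. Quantile scaling gave -0.23, -0.28 and -0.12 in that order. Without LPS 3, cpdA 3 and DHA 1 the DHA median was -0.60. The called members stayed at 0 in each comparison with other pseudocounts, filters, TMM or quantile scaling, limma with neither trend nor robust options, only the groups compared, edgeR, the stricter threshold and each library left out, while DESeq2 gave 2 for cpdA. With 7 libraries 19 (DHA) and 15 (cpdA) were called, and edgeR on these gave 19 and 16. Without DHA 1 too the counts were 22, 19 and, for cpdA against DHA, 1, without cpdA 1 in its place 18 and 3, and without cpdA 2 in its place 18 and 11.

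Calls over all genes, 1 for DHA and 1 for cpdA, were 3 for DHA with the filter at 50, with TMM or with edgeR, 0 for both without trend and robust options or at the threshold of 0.01, 9 for DHA and 0 for cpdA with only the groups compared, and 315 and 391 with DESeq2, which gave no adjusted p for 279 and 1895 genes. Leaving out 1 library gave 0 to 373 for DHA, the highest without cpdA 3, and 0 to 3 for cpdA. With 7 libraries they were 943 and 222 (edgeR 1157 and 290), without DHA 1 too 3210, 730 and 1215 (cpdA against DHA), without cpdA 1 in its place 618 and 8, and without cpdA 2 in its place 627 and 55. The replicate block gave 0 genes for DHA and 0 for cpdA, also when only LPS and cpdA libraries were fitted (0), and it changed no member's call. The cause of these differences was not tested.

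Of the 31 fitted differences, at most 3 changed sign for DHA and at most 3 for cpdA when 1 library was left out, with a change in 4 of the 9 such fits for each. For cpdA minus DHA up to 16 did, the most without cpdA 3, with a change in 5 of 9. In the fits of 7 or 6 libraries 2 to 3 changed sign for DHA, 3 to 4 for cpdA and 9 to 19 for cpdA minus DHA, and in all other settings only Srebf2 for DHA with quantile scaling. The lowest normalized count of a member was 65.2 (Pdss1, cpdA 3), well above the 6.69 that 3 reads make in DHA 1. A read stood for 0.905 normalized counts in cpdA 3 and for 2.23 in DHA 1, the library with the fewest reads. The lowest normalized count is therefore not the lowest number of reads. The number of libraries and the 2 that stood apart limit the tests.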
